A study of Arabidopsis thaliana with 6 samples.

Results

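The MYB transcription factor family of A. thaliana was examined for binding by LEAFY (LFY), the regulator that turns a shoot meristem into a flower. Members were the protein-coding genes whose symbol or synonym is MYB or AtMYB followed by a number. This gave 125 genes, of which MYB17, MYB37, MYB38 and MYB84, a small group linked to floral and axillary meristems, were left out. The family was chosen with earlier results of these data known. Its remaining 121 members, of 27444 protein-coding genes on the 5 chromosomes, were taken by name. Of these, 113 carry the MYB number as their primary symbol and 8 only as a synonym, for example FLP for MYB124, LAF1 for MYB18 and PAP1 for MYB75.

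ChIP-Seq with a rabbit serum against the C-terminal part of LFY was done on whole 15-day-old seedlings, roots included, of 3 genotypes with 2 biological replicates each. The p35S:LFY plants (CA26-15) expressed the LFY cDNA and the p35S:LFYTERE plants (CA29-17) expressed LFY with the T75E and R112E changes in its SAM oligomerization domain, both from the constitutive 35S promoter. Non-transgenic Col-0 seedlings were the control for both. Each transgenic genotype was a single line, all seedlings were untreated, and LFY was made in many cells that do not normally hold it, so binding here need not occur at the normal site of LFY expression. A bound region is one that the authors called against both Col-0 replicates in both replicates of a genotype. Its coverage fold reduction (CFR) is the ratio of normalized coverage in p35S:LFY to that in p35S:LFYTERE, and its rank is its place in the list of its genotype, with 1 the best. Replicates were fused before CFR was computed, so each region has 1 value of CFR and of rank and no spread between replicates, and the lists do not give the reads behind a value. No statistical test was made on the members, and all comparisons are descriptions.

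MYB proteins bind DNA through repeats of a helix-turn-helix fold that is shared with the animal oncoprotein c-Myb. In plants the family is large, and its members are best known as switches of specialised metabolism, of epidermal cell fate and of cell wall deposition, often acting together with bHLH partners. LFY binds DNA as a dimer, and its SAM domain lets dimers assemble into larger complexes. The comparison of both transgenic genotypes asks how far binding at a site requires that assembly.

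LFY was bound near 25 of the 121 MYB genes. Bound were 5 of 13 regulators of flavonoids and other phenylpropanoids, 4 of 6 of glucosinolates and 0 of 14 of the secondary cell wall. At the bound share of all genes of their lengths these counts would be 1.80, 0.892 and 2.03. Differences between role groups were not tested, and the other groups are given below. A gene was counted when the midpoint of a p35S:LFY region lay inside it or within 3 kb of either end, which gave a share of 20.7%, against 13.5% of all protein-coding genes (3700 of 27444). MYB genes are slightly shorter than the average gene, with a median length of 1763 bp against 2078 bp, and have more free space to their neighbours, with a median of 5606 bp over both sides against 1855 bp. Genes with the length distribution of the members were bound in 14.1% of cases, which would correspond to 17.1 of 121 genes. Genes with the free space of the members were bound in 14.0%, corresponding to 16.9 genes. The 25 bound members held 30 regions of the 1954 in the list. No region was within 3 kb of more than 1 member. One region was found at 21 members, 2 at each of MYB12, MYB41 and MYB51, and 3 at MYB28. The share of bound genes with 2 or more regions was 16.0% among members and 14.0% among all bound genes.

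**Figure D1:**
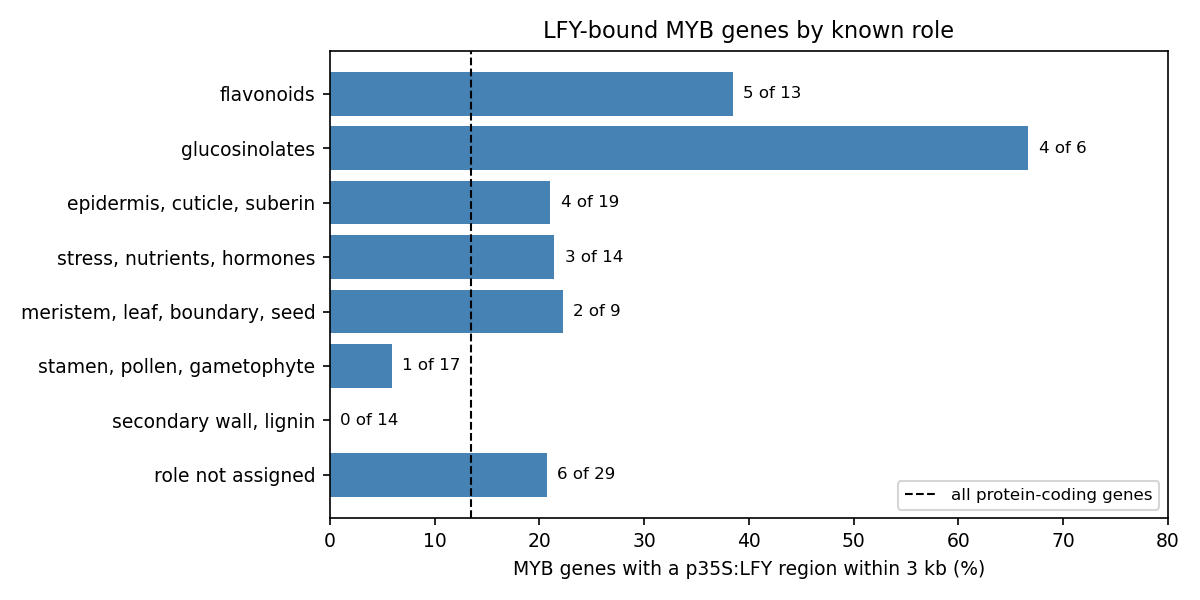
Share of MYB genes with a p35S:LFY region within 3 kb, in percent, for each role group used here. The bars carry the number of bound genes and of genes in the group. The bound genes of the meristem, leaf, boundary and seed group, MYB59 and MYB124, do not have the roles in its name. The dashed line is the share of all protein-coding genes, 13.5%, and the glucosinolate and flavonoid bars extend farthest beyond it, while the secondary wall group has no bar.

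The 3 activators of flavonol synthesis, MYB11, MYB12 and MYB111, a clade picked after the bound members were seen, were all bound within the gene itself. These closely related factors switch on the early genes of the flavonoid pathway in different parts of the seedling, and seedlings that lack all of them are almost free of flavonols. At the bound share of all genes of their lengths, 0.433 of these 3 genes would have a region within 3 kb. Of all protein-coding genes, 3.02% had a region inside the gene. MYB12, the main flavonol activator of the root, held the region of best rank of the family, at chr2:19478907-19479521 (TAIR10), with a rank of 12 and a CFR of 14.3. A second region in MYB12, at chr2:19477701-19477977, had a rank of 728 and a CFR of 11.7. The region in MYB111, which acts mainly in cotyledons, lay at chr5:20001322-20001747 with a rank of 123 and a CFR of 6.86. The region in MYB11 lay at chr3:23156013-23156478 with a rank of 144 and a CFR of 2.93, the lowest value of all MYB regions. CFR at these relatives thus ran from 2.93 at MYB11 to 14.3 at MYB12. These values come from fused replicates and have no spread. Whether they differ by more than replicates would, or because of the TERE changes, was not tested. For the region of best rank in each of the 3 genes, the midpoint lay inside the higher-coordinate end of the gene. The distances were 383 bp (MYB12), 339.5 bp (MYB11) and 37.5 bp (MYB111). The gene table used here gives no strand, so it is not stated for any of them whether this end is the start or the end of transcription. These 3 regions ranged from 426 to 615 bp in width, above the list median of 365 bp.

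Of the 13 members assigned to flavonoids and other phenylpropanoids, 5 were bound. At the bound share of all genes of their lengths this count would be 1.80. MYB75, also named PAP1, which activates the late genes of anthocyanin synthesis, had a region 1316 bp beyond its lower-coordinate end (chr1:21232049-21232429, rank 303, CFR 8.76). The other anthocyanin activators, MYB90, MYB113 and MYB114, had none. MYB4, a repressor of the branch that leads to sinapate esters, the compounds that screen ultraviolet light, had a region 535.5 bp from its end (chr4:18055408-18055743, rank 1084, CFR 4.83), and its relatives MYB3, MYB7 and MYB32 had none. MYB123 (TT2), which controls tannins of the seed coat, and MYB5 were also without a region.

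Glucosinolates are sulphur-rich defence compounds of the cabbage order, made from methionine or tryptophan, and 4 of the 6 MYB genes that control their synthesis were bound. At the bound share of all genes of their lengths this count would be 0.892. This group, like the other role groups, was chosen with earlier results of these data known. All 7 regions of these 4 genes had a CFR above the list median of 7.40, from 8.23 to 50.7 with a median of 15.7. Of the 23 regions at the other members, 7 were above that median, with values of 2.93 to 22.6 and a median of 6.86. Regions of the same gene are not independent, and 5 of the 7 belong to MYB28 and MYB51.

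MYB28, the main activator of the aliphatic glucosinolates that derive from methionine, carried the most regions of the family, 3 in a row beyond its higher-coordinate end. The nearest, 196.5 bp from the gene (chr5:24691246-24691521, rank 1111), had a CFR of 50.7, the highest of all MYB regions and higher than 98.3% of the list. The next, 1634 bp away (chr5:24692660-24692982, rank 1432), had a CFR of 14.9, and the farthest, 2908.5 bp away (chr5:24693904-24694287, rank 263), had one of 15.7. Midpoints were 1437.5 and 1274.5 bp apart, and MYB28 was the nearest gene for all 3. The region of best rank was therefore the farthest from the gene, and the region of highest CFR the nearest, at 3.40 times the CFR of its neighbour. None of the 3 regions was called in p35S:LFYTERE. Each CFR is a single value without spread, and whether these values differ by more than replicates would was not tested. MYB29 and MYB76, which act with MYB28 on the same pathway, had no region within 3 kb.

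MYB34, MYB51 and MYB122, which together control the indole glucosinolates that derive from tryptophan, were all bound. MYB51, which acts mainly in the shoot, had a pair of regions with only 91 bp between them. The outer one (chr1:6388109-6388433, rank 560) had a CFR of 18.8 and the inner one (chr1:6388525-6388857, rank 615) one of 8.23. This is a 2.29-fold difference between regions whose midpoints are 420.0 bp apart. Neither region was called in p35S:LFYTERE, and these values have no spread, so the difference was not tested. Another gene, AT1G18560, lies closer to both regions than MYB51. MYB34, known as ATR1 and active mainly in the root, had a region 992 bp away (chr5:24493159-24493439) with a CFR of 27.9, the second highest of the family, and a rank of 1886, the poorest of the family. MYB122 had a region 1960.5 bp away (chr1:27859397-27859720, rank 516) with a CFR of 14.9, for which AT1G74088 is the nearest gene.

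**Figure D2:**
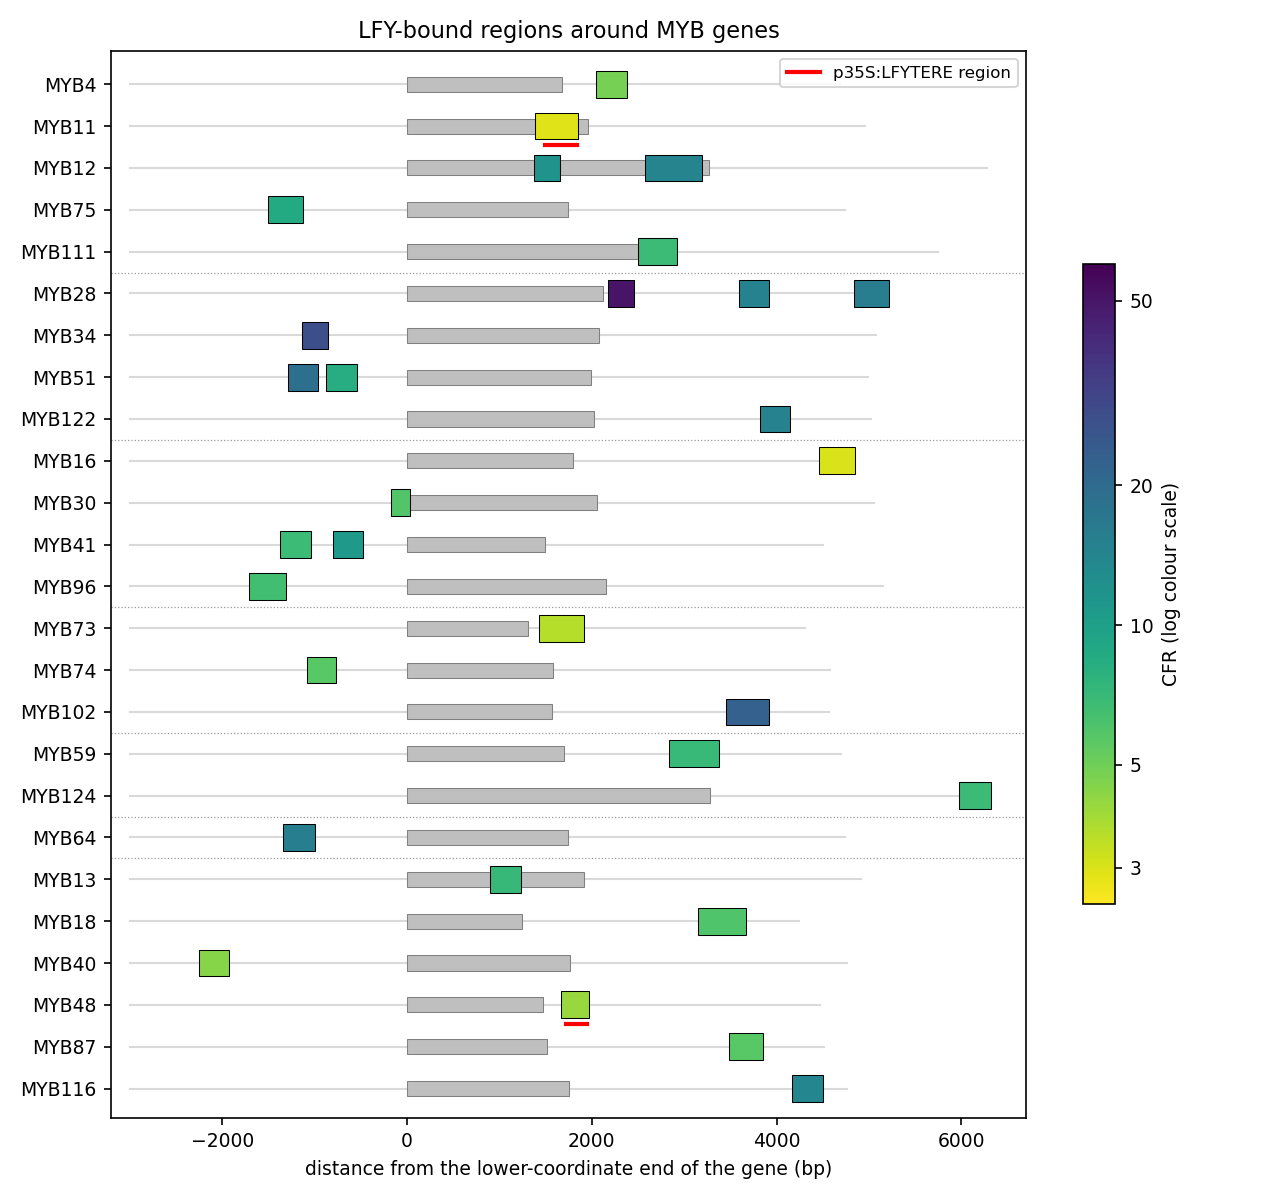
The 25 bound MYB genes drawn to scale, in rows by known role from flavonoids at the top to genes without an assigned role at the bottom; the x axis is the distance in bp from the lower-coordinate end of the gene. Grey bars are genes, thin lines the window of 3 kb on both sides, boxes the p35S:LFY regions coloured by CFR, and red lines below a box the 2 p35S:LFYTERE regions, at MYB11 and MYB48. The darkest box is the region next to MYB28 with a CFR of 50.7, and 5 regions have their midpoint inside a MYB gene.

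Regulators of the plant surface were bound in 4 of 19 cases, against 2.78 at the bound share of all genes of their lengths. MYB30, which promotes cell death upon pathogen attack and synthesis of very-long-chain fatty acids, had the region closest to a gene without having its midpoint in it, 71 bp from its lower-coordinate end (chr3:10910957-10911165, rank 1628, CFR 5.90). With 209 bp it was the narrowest MYB region. MYB96, which activates wax synthesis in response to abscisic acid, had a region 1505.5 bp away (chr5:25077285-25077686, rank 1029, CFR 6.58) that is closer to AT5G62460. MYB16, which shapes the conical cells of petals and promotes the cuticle, had a region at the margin of the window, 2857.5 bp away and closer to AT5G15320, with a CFR of 2.98 (chr5:4979133-4979522, rank 884). The regulators of trichome and root hair patterning MYB0 (GL1), MYB23 and MYB66 (WER) had none, nor did MYB36, which directs the Casparian strip.

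MYB41, a regulator of suberin, and its relatives MYB74 and MYB102, which respond to salt, drought and wounding, were all bound, whereas MYB49, the other gene of that clade, was not. This clade was picked after the bound members were seen, and at the bound share of all genes of their lengths 0.578 of its 4 genes would be bound. MYB41 had a pair of regions, one inside its neighbour AT4G28100 (chr4:13966659-13966994, rank 1384, CFR 6.90) and one 637 bp from MYB41 itself (chr4:13967231-13967553, rank 1419, CFR 10.8), which is also closer to AT4G28100. MYB74 had a region 928.5 bp away (chr4:2617289-2617598, rank 1870, CFR 5.71). MYB102 had one 2118.5 bp away (chr4:11421657-11422118) with a better rank of 274 and a CFR of 22.6, the third highest of the family. CFR over the 4 regions of the clade thus ran from 5.71 to 22.6.

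Among the other members assigned to stress and hormone response, MYB73, which dampens the response to salt, had a region 362.5 bp away that lies inside HMA1, a gene of chloroplast metal transport (chr4:17541914-17542409, rank 979, CFR 3.57). Its relatives MYB44, MYB70 and MYB77 had none. In all, 3 of 14 members of this group were bound, against 1.96 at the bound share of genes of their lengths. MYB59, a gene of root growth and the cell cycle, and MYB48, its close relative, both had a region beyond their higher-coordinate end. That of MYB59 was 1415.5 bp away (chr5:24084707-24085248, rank 169, CFR 7.07) and that of MYB48 353 bp away (chr3:16946900-16947204, rank 933, CFR 4.06). MYB124 (FLP), which ends the divisions of the guard cell lineage, had a region 2866.5 bp away that is closer to another gene (chr1:4913858-4914211, rank 1092, CFR 6.89), and MYB88, its partner in that role, had none. MYB59 and MYB124 were the 2 bound genes of the 9 grouped here under development of meristems, leaves, organ boundaries and seeds. At the bound share of genes of their lengths this count would be 1.28. The heading describes neither of their known roles, so the count does not show binding at genes with the roles it names.

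Of the members with roles in stamens, pollen and the embryo sac, only MYB64 was bound, 1 of 17, against 2.40 at the bound share of genes of their lengths. MYB64 acts in the female gametophyte together with MYB119, which had no region. The MYB64 region (chr5:3500752-3501101, rank 1280, CFR 15.5) lay inside TRS120, a gene of vesicle traffic, 1165.5 bp from MYB64. No region was found at the 7 GAMYB-like genes of the anther and pollen tube (MYB33, MYB65, MYB81, MYB97, MYB101, MYB104 and MYB120), nor at MYB21, MYB24 and MYB57, through which jasmonate drives stamen maturation. At the bound share of all genes of their lengths, these counts would be 0.991 for the GAMYB-like genes and 0.423 for the MYB21 clade. Both clades were picked after the bound members were seen, and with counts this low the lack of a region shows no depletion.

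None of the 14 members that control the secondary cell wall and lignin was bound, against 2.03 at the bound share of genes of their lengths. They include the master switches MYB46 and MYB83, the lignin activators MYB58, MYB63 and MYB85, and MYB26, which thickens the anther wall. The nearest approach was at MYB103, with a p35S:LFY region 3482 bp away (CFR 5.89), and at MYB54, with one 5353 bp away (CFR 3.29). These role groups are short, and none of the differences between them was tested.

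Of the 29 members to which no role was assigned here, 6 were bound, against 3.96 at the bound share of genes of their lengths. MYB13 had its region inside the gene (chr1:1890257-1890591, rank 1052, CFR 7.13). MYB18, named LAF1 for its part in far-red light responses through phytochrome A, had one 2169.5 bp away (chr4:13055652-13056171, rank 497, CFR 6.02) that is closer to ACYB-2. MYB87 had one 2153 bp away (chr4:17761719-17762079, rank 322, CFR 5.70), and MYB40 one 2087.5 bp away (chr5:4620947-4621274, rank 1230, CFR 4.46), closer to AT5G14330. The MYB116 region, 2575.5 bp away, lay inside the tRNA ligase gene OVA9 (chr1:8889186-8889519, rank 1110, CFR 14.0).

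Position relative to the gene varied. Of the 30 regions, 5 had their midpoint inside the member, 4 within 500 bp of it, 5 between 500 and 1000 bp, 8 between 1000 and 2000 bp and 8 between 2000 and 3000 bp. The member was the nearest gene for 17 regions of 14 members. For the other 13 regions, at 11 members, another gene was nearer or held the midpoint, and distance alone does not tie these regions to the MYB gene. Midpoints lay inside some protein-coding gene for 30% of MYB regions and 43.7% of all p35S:LFY regions. At the edge of the window, the members just inside were MYB28 (2908.5 bp for its farthest region), MYB124 and MYB16, and those just outside were MYB66 at 3051.5 bp (CFR 18.3), MYB103 and MYB8 at 3723 bp (CFR 18.9). By chromosome, 6 of 29 members were bound on chromosome 1, 1 of 12 on chromosome 2, 3 of 27 on chromosome 3, 7 of 17 on chromosome 4 and 8 of 36 on chromosome 5. The share of all genes bound was 14.1%, 13.3%, 12.6%, 13.3% and 13.8% on these chromosomes in the same order.

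As a set, MYB regions lay close to the whole list in rank and CFR. Their median CFR was 7.10, with quartiles of 5.76 and 14.8, against 7.40, 4.82 and 13.0 for all 1954 regions. A CFR above 10 was found for 12 of 30 regions (40.0%) and 35.3% of the list. The paper states a larger share of its regions above 10 than these deposited values give, and the reason was not examined. A CFR above 20 was found for 3 (10%) and 13.5%, and a CFR of 3 or less for 2 (6.67%) and 6.40%. Median rank was 956 against 977.5, and 4 MYB regions were among the best 200, those of MYB12, MYB111, MYB11 and MYB59 (13.3% of MYB regions, against 10.2% of the list). Median width was 336 bp against 365 bp. Within the family CFR ranged from 2.93 at MYB11 to 50.7 at MYB28.

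**Figure D3:**
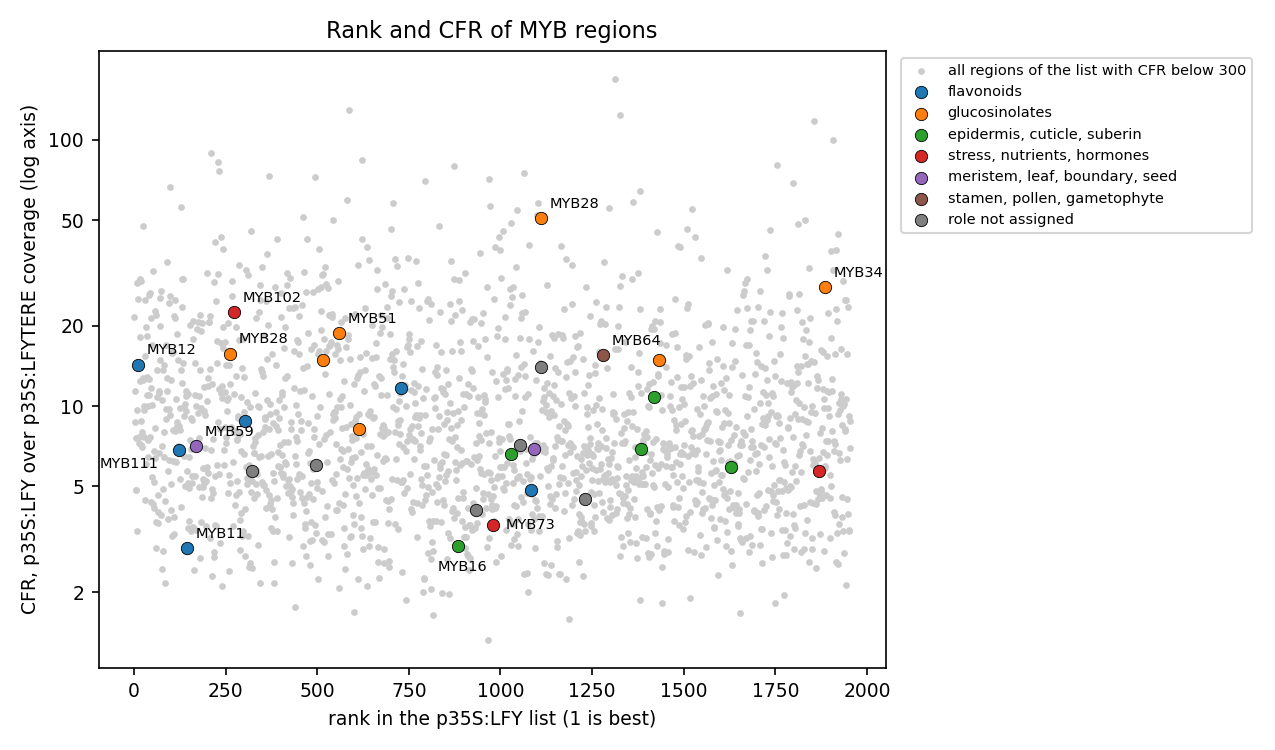
Rank in the p35S:LFY list (x axis, 1 is best) and CFR (y axis, log scale) of the 30 MYB regions, coloured by known role, over the other regions of the list in grey; 2 regions of the list with a CFR above 300 are not drawn. MYB12 has the best rank of the family, MYB28 the highest CFR and MYB11 the lowest, and the 7 glucosinolate regions lie between 8.23 and 50.7.

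In p35S:LFYTERE, 2 of the 121 members had a bound region within 3 kb, MYB11 and MYB48, a share of 1.65% against 1.49% of all protein-coding genes. The region in MYB11 (chr3:23156125-23156470) had rank 89 of 176 and a CFR of 2.95, and lay entirely within the p35S:LFY region of the gene, whose CFR was 2.93. The region next to MYB48 (chr3:16946955-16947180) had rank 174 of 176 and a CFR of 3.85, and lay within the p35S:LFY region with a CFR of 4.06. At both, coverage was still lower in p35S:LFYTERE than in p35S:LFY. No other MYB region overlapped a region of that list, so 28 of 30 were called in p35S:LFY only. The share called in both genotypes was 6.67% of MYB regions and 8.85% of all. A low CFR did not always go with a call in p35S:LFYTERE: of the 6 MYB regions with a CFR of 5 or less, those of MYB16, MYB73, MYB40 and MYB4 were not called there. Over the whole list, 156 of 520 such regions were called in both, 30%. The next nearest p35S:LFYTERE regions were 5376 bp from MYB54, 7735 bp from MYB106, 8575 bp from MYB41 and 9125 bp from MYB51. Both p35S:LFYTERE libraries were sequenced less deeply than both p35S:LFY libraries, and the part of depth in the lower number of calls in p35S:LFYTERE was not tested.

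The number of bound members moved with the definition of a bound gene. The share of members was above that of all genes under each definition tried. These definitions draw on the same regions, and shares at matched gene length or free space were computed only for 3 kb. With a window of 1 kb, 13 members (10.7%) were bound against 7.66% of all genes, and with the nearest gene only, 14 (11.6%) against 6.48%. With 5 kb, 28 members (23.1%) were bound against 19.3%. Inside the gene, 4 members (3.31%) were bound against 3.02%, the smallest difference. The flavonol activators MYB11, MYB12 and MYB111 hold a midpoint inside the gene and so meet each of these definitions by construction. Their presence under each of them is therefore no further support. Of the glucosinolate regulators, MYB28 and MYB34 were bound within 1 kb and as the nearest gene, MYB51 within 1 kb only and MYB122 under neither.

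**Figure D4:**
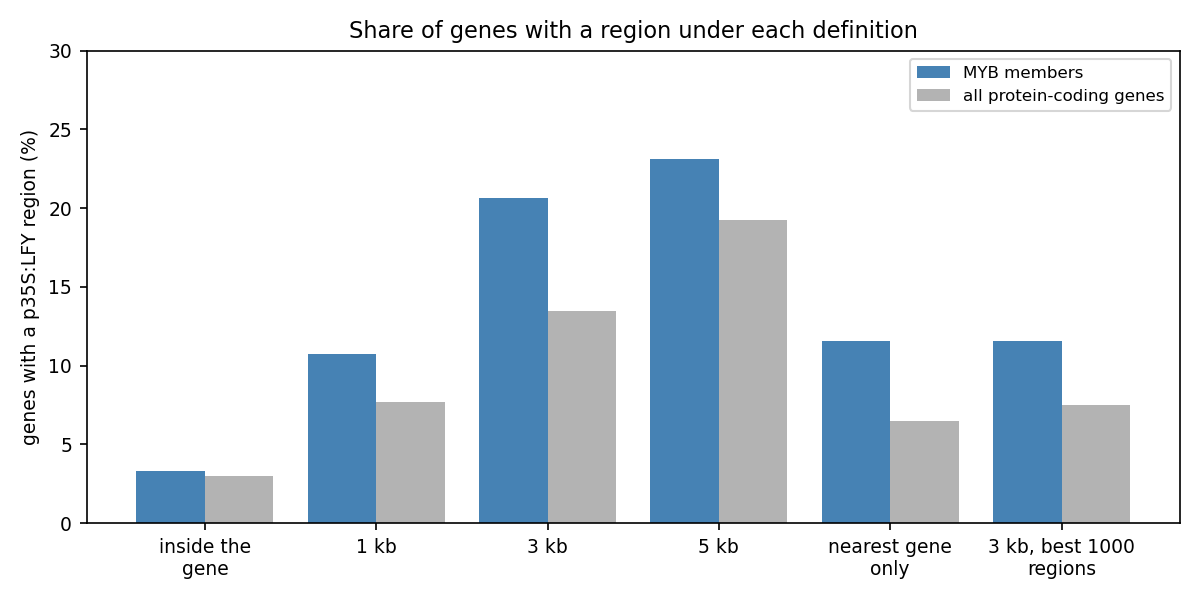
Share of genes with a p35S:LFY region, in percent, for the 121 MYB members and for all protein-coding genes, under each definition of a bound gene. For regions inside the gene the bar of the members is at 3.31% and that of all genes at 3.02%. Within 3 kb they are at 20.7% and 13.5%.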

How the data were processed

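The authors mapped reads and removed duplicates with SHORE on TAIR10 (build per the submitters' processing notes), ran the peak finder of that suite, and required each replicate to pass a strict false discovery rate against each control. Coverage of extended reads was scaled between replicates, fused, and scaled between genotypes over background peaks of Col-0. The deposited rank is a score without a unit, and the deposited CFR is a linear ratio of those coverages. CFR is the authors' own comparison and is described, not tested. Genes came from a RefSeq table of TAIR10.1 without strand, exons or sequence, so no gene coordinates are printed. As a check of positions, 56.3% of p35S:LFY midpoints lay outside genes, against 35.9 to 45.5% after moving them by 1 to 20 kb. Expected counts use the bound share of all genes in 10 classes of length or of free space to both neighbours. Every bound member is named. The assignment of regions to genes was tested on simulated data. Members, role groups and alternatives were chosen with earlier results of these data known, and clades after the bound members were seen. Python 3.11.15, pandas 2.3.3 and matplotlib 3.10.9 were used.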

Additional observations from a re-analysis of the deposited data

How the results depend on the processing

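The number of MYB genes with a p35S:LFY region was 25 within 3 kb, 13 within 1 kb, 4 inside the gene, 14 with the nearest gene only and 14 with the best 1000 regions by rank. It was 26 when any base of the region counted, MYB66 being added, 22 with members taken by primary symbol, and 28 within 5 kb, a window chosen after seeing the data. The 2 members with a p35S:LFYTERE region remained at 1 kb, with the nearest gene and with any base, but the best 88 of those regions left 0, since MYB11 holds rank 89. Median CFR of MYB regions ran from 6.998 to 7.65 over its 4 alternatives. The 2 shared regions were found under each overlap rule tried. Classes of free space, also chosen after seeing the data, gave 14.0% in place of 14.1%. No paired analysis was possible because the lists hold replicates fused by the authors, which also prevents leaving out a replicate. Limits are that the lists do not give the reads behind each region, 1 line per transgene, and assignment to genes by distance alone.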
